A study of Drosophila melanogaster with 12 samples.

Results

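Nepl4 (CG9505) is a gene on chromosome arm 2L of Drosophila melanogaster that encodes a neprilysin-like peptidase, and it is followed here through larvae that ate rapamycin with and without the transcription factor REPTOR. It was found on the array by its RefSeq accession NM_135175, which 1 probe, A_09_P019946, carries in a single spot per array. It is 1 of 25842 genes or target sequences on the array, of which 18757 were bright enough to be tested. Probes that carry only a transcript or clone identifier were not matched to genes here, so others may target it too. The gene was chosen by its measured rise on rapamycin in control larvae and by the loss of that rise in the knockout. Its levels in all 4 groups and every difference between them are therefore a description with no test.

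Neprilysins are zinc metallopeptidases of the M13 family that cut short peptides, among them peptide hormones and neuropeptides, mostly at the outer face of the cell membrane. The fly genome carries a large set of neprilysin-like genes beside the classical neprilysins, and several of the encoded proteins lack residues needed for catalysis. In the fly, neprilysins have been linked to feeding, insulin-like signalling and fertility. Rapamycin inhibits TORC1, the kinase complex that couples nutrients to growth. TORC1 phosphorylates REPTOR and keeps it in the cytoplasm, and when TORC1 is inhibited REPTOR enters the nucleus and activates transcription.

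There were 4 groups of 3 arrays, each array labelled as a biological replicate. REPTOR knockout larvae ate food with 200 µM rapamycin, REPTOR knockout larvae ate ethanol food, w1118 control larvae ate food with 200 µM rapamycin, and w1118 control larvae ate ethanol food. Feeding lasted 6 h and began from larvae that were growth controlled, synchronised and 48 h before wandering, all labelled female. The RNA is total RNA of larvae, so more transcript per cell and more cells that make it cannot be told apart. The labels do not say which allele the knockout carries, and no probe matched REPTOR, so the genotype was not checked through the targeted gene. A difference between genotypes here includes any difference in genetic background.

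Some rapamycin arrays carried a male signal, although all are labelled female. In log2 processed signal minus the 75th percentile of the same array, the level of lncRNA:roX2, a noncoding RNA that works in dosage compensation of the male X chromosome, was 0.01, -1.10 and -5.83 on knockout rapamycin arrays 1, 2 and 3 and -9.06 to -7.52 on knockout ethanol arrays. It was -8.74, -8.68 and -1.29 on control rapamycin arrays 1, 2 and 3, and -8.97 to -6.90 on control ethanol arrays. The other tested marker of male dosage compensation, lncRNA:roX1, had 3.88, 2.91 and -0.47 on knockout rapamycin arrays 1, 2 and 3. On control rapamycin arrays 1, 2 and 3 roX1 had 0.17, 0.43 and 3.35. Its levels were -1.57 to -1.39 on knockout ethanol arrays and -0.80 to -0.13 on control ethanol arrays. On those arrays with roX2 above -3 the median level over 59 targets whose names are clones from testis cDNA was -2.97 to -1.60, against -5.38 to -4.96 on the other 9.

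The Nepl4 probe gave a strong, clean signal. It was well above background on 12 of 12 arrays, saturated on 0 and marked as an outlier on 0. The median spot signal was 77.3 to 93.8 times the local background on knockout rapamycin arrays and 42.2 to 68.5 times on knockout ethanol arrays. On control arrays it was 259 to 455 times the local background with rapamycin and 53.7 to 61.1 times with ethanol. Each group has 3 arrays, and this small number limits the precision.

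In background-corrected processed signal, knockout larvae on rapamycin had 1492, 1250.1 and 1390.4, against 870, 1295 and 977 in knockout larvae on ethanol. Control larvae on rapamycin had 8646, 8366 and 7505, against 833, 998 and 1051 in control larvae on ethanol. The 3 control rapamycin arrays stood far above the 9 others, which lay within 833 to 1492.

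Nepl4 levels were compared on the same scale as those of roX2, where 0 equals the 75th percentile of the array. Knockout larvae on rapamycin had levels of -0.28, -0.27 and -0.10, and knockout larvae on ethanol had -0.83, -0.36 and -0.65. Control larvae on rapamycin had levels of 2.50, 2.43 and 2.43, and control larvae on ethanol had -0.85, -0.70 and -0.55. The means were -0.22 ± 0.10 and -0.61 ± 0.24 in the knockout and 2.45 ± 0.04 and -0.70 ± 0.15 in the control, rapamycin before ethanol each time (SD, n = 3). From high to low the order was control rapamycin, knockout rapamycin, knockout ethanol and control ethanol. The last 2 of these overlapped array by array. The tightest group was control rapamycin, whose arrays spanned 0.07 on the log2 scale, and the widest was knockout ethanol, whose arrays spanned 0.48.

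**Figure D1:**
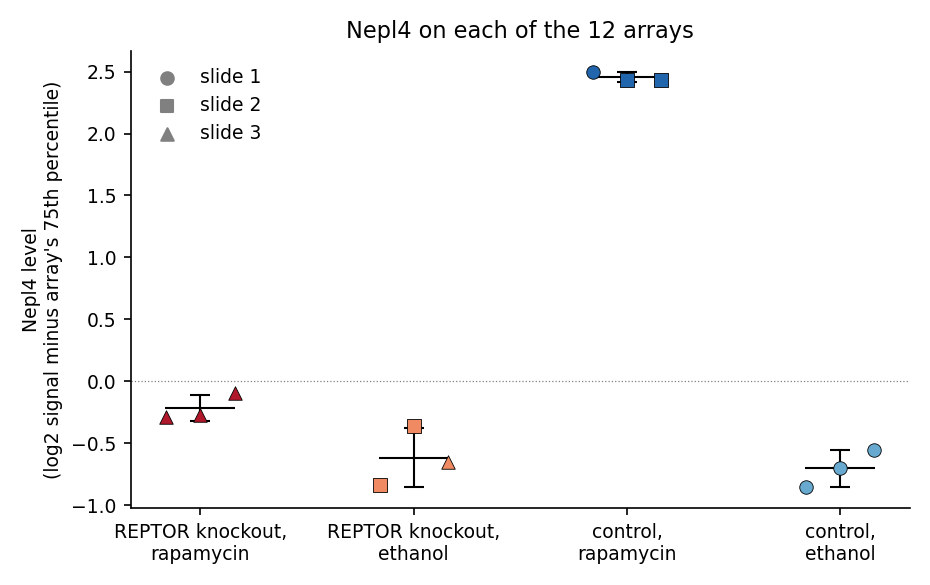
Level of Nepl4 (vertical axis, log2 processed signal minus the array's 75th percentile) on each of the 12 arrays by group (horizontal axis). Symbols mark the slide, horizontal bars the group mean and whiskers the SD over 3 arrays. The control rapamycin arrays lie at 2.43 to 2.50 and all the others between -0.85 and -0.10.

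In control larvae Nepl4 was 8.91-fold higher on rapamycin than on ethanol, a log2 difference of 3.16 ± 0.12 (SE from limma, n = 3 arrays per group). Each of the 9 pairs of a rapamycin and an ethanol array showed it, with folds from 7.90 to 10.2. By the size of this rise Nepl4 was 24th of 18757 targets. Of the 23 targets above it, 10 were well above background on all control ethanol arrays, and among the 16589 targets well above background on all 12 arrays Nepl4 was 11th. For scale, 21.2% of all tested targets were called higher and 21.8% lower in this comparison (limma, adjusted p under 0.05), and the median over all targets was 0.05.

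The targets on either side of Nepl4 in that order had less even values over the arrays. Directly above it were FBtr0085599 (fitted rise 3.18 ± 2.29) and CO341546 (3.17 ± 0.47), neither of them well above background on any control ethanol array. As a group mean, CO341546 was at least 2.43-fold higher on rapamycin. The rise of FBtr0085599 is a fitted value with no bound, since it was well above background on only 1 of 3 control rapamycin arrays. That array is control rapamycin array 3, with raised roX2, where FBtr0085599 had a level of -0.27, against -9.11 and -8.99 on the other 2, close to the -9.42 to -9.18 of the control ethanol arrays. For such a bound the mean on rapamycin was divided by a floor for the ethanol arrays, made on each from its faintest probe still well above background, or from the dim probe itself where that was brighter. Directly below it were FBtr0081455 (3.13 ± 0.98), at least 4.06-fold higher, and FBtr0071559 (3.09 ± 2.18). FBtr0081455 was well above background on no control ethanol array either, whereas FBtr0071559 was so on all 12 arrays, as Nepl4 was. The standard error of Nepl4, 0.12, was the smallest among these 5 targets.

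In REPTOR knockout larvae the Nepl4 level was 1.32-fold higher on rapamycin than on ethanol, a log2 difference of 0.40 ± 0.12 (SE, n = 3 arrays per group). All 9 array pairs had the rapamycin array higher, with folds from 1.05 to 1.67. The lowest rapamycin array (-0.28) and the highest ethanol array (-0.36) were 0.07 apart, less than the SD within either group. By this effect Nepl4 was only 2476th of 18757 targets, of which 6.37% were called higher and 8.97% lower. On the log2 scale, 12.6% of the effect in control larvae was left. Centring each array on its median instead gave 0.075 ± 0.22 (SE), with the median of all targets at -0.31 in place of 0.01. The levels on knockout rapamycin arrays 1, 2 and 3 were then 2.23, 2.64 and 3.05. Such centring shifts all targets on an array alike, so the distance of Nepl4 from the median of all targets remained at 0.39 by construction.

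The rapamycin effect on Nepl4 was lower in the knockout than in the control, with a log2 difference of effects of -2.76 ± 0.17 (SE). By this loss Nepl4 was 27th of 18757 targets, and 17th among the 16589 well above background on all arrays. For scale, 7.99% of all targets were called with a lower effect in the knockout and 6.63% with a higher one. Counting Nepl4 itself, 9 targets had both a rise in control larvae and a loss in the knockout at least as large as those of Nepl4. Of 113 targets that were called higher in control larvae with a log2 rise of at least 2, Nepl4 was the only one with a gene symbol. Symbols are rare on this array, since only 142 of the 18756 other tested targets have one. The median share of the log2 effect left in the knockout over these 113 was 22.2%, with quartiles of 6.22% and 43.0%, and 37 of them, Nepl4 included, kept 12.6% or less. The 2 effects share no array, but they rest on one estimate of the spread.

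**Figure D2:**
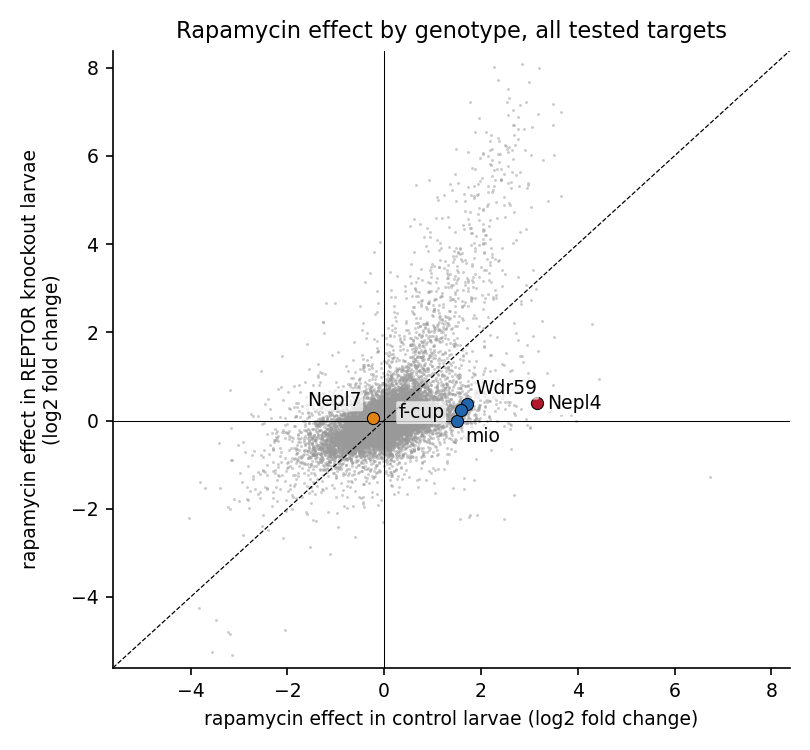
Rapamycin effect in REPTOR knockout larvae (vertical axis) against that in control larvae (horizontal axis), both as log2 fold change, for the 18757 tested targets. Grey points are all targets, the dashed line marks equal effects, and Nepl4 (red) lies at 3.16 in control and 0.40 in knockout larvae, far below that line.

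The neighbours of Nepl4 in the order of loss were targets without a symbol. With slightly larger losses came FBtr0089927 (-2.79 ± 0.13) and CK133896 (-2.78 ± 0.92), and with slightly smaller losses FBtr0079080 (-2.73 ± 0.27) and TC242830 (-2.70 ± 0.67). FBtr0089927 had effects of -0.18 ± 0.09 in knockout and 2.61 ± 0.09 in control larvae, and FBtr0079080 had -0.10 ± 0.19 and 2.63 ± 0.19. Both were well above background on all 12 arrays, as was Nepl4. CK133896 and TC242830 were not well above background on any control ethanol array, so their losses are fitted values with no bound.

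Between genotypes, the difference on rapamycin food was large. Nepl4 was 6.37-fold lower in knockout than in control larvae there, a log2 difference of -2.67 ± 0.12 (SE, n = 3 arrays per group), and lower in 9 of 9 array pairs. In this order it was 42nd from the bottom, in a comparison where 15% of all targets were called lower. It shares its arrays with the comparisons above.

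On ethanol food the genotypes overlapped array by array. The knockout level was -0.61 ± 0.24 and the control level -0.70 ± 0.15 (SD, n = 3), a log2 difference of 0.09 ± 0.12 (SE). The knockout array was higher in 6 of 9 pairs. In this comparison 6.4% of all targets were called, 2.91% higher and 3.49% lower in the knockout. This difference is part of the loss by which the gene was chosen, so it carries no test.

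Slides hold 4 arrays each and cut across the groups only in part. Slide 1 holds all control ethanol arrays and control rapamycin array 1, slide 2 the other control rapamycin arrays with knockout ethanol arrays 1 and 2, and slide 3 knockout ethanol array 3 with all knockout rapamycin arrays. Within slide 3 the rapamycin effect on Nepl4 in knockout larvae was 0.44, and within slide 1 it was 3.20 in control larvae. Slide 3 has a single knockout ethanol array and slide 1 a single control rapamycin array, so each of these values rests on 1 array in an arm. A fit with slide as a block draws both effects from the same arrays and gives the same values by construction, with a difference between them of -2.77 ± 0.27. Also with this block the genotype difference was -2.59 on rapamycin food and 0.17 on ethanol food.

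Beside the male signal, the Nepl4 level was -0.28, -0.27 and -0.10 on knockout rapamycin arrays with roX2 at 0.01, -1.10 and -5.83. It was 2.50, 2.43 and 2.43 on control rapamycin arrays with roX2 at -8.74, -8.68 and -1.29. In the knockout group the array with the lowest roX2 had the highest Nepl4 level. On control rapamycin arrays 1 and 2 roX2 was not well above background, so their order by roX2 is not read. Without the 3 arrays with raised roX2 (above -3) the effects were 0.52 in knockout and 3.17 in control larvae. The difference of effects was then -2.65, and the genotype difference on rapamycin food was -2.56. In knockout larvae a single rapamycin array is left, whose spread is taken from the other groups. On that array, knockout rapamycin array 3, roX2 at -5.83 was still well above background.

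**Figure D3:**
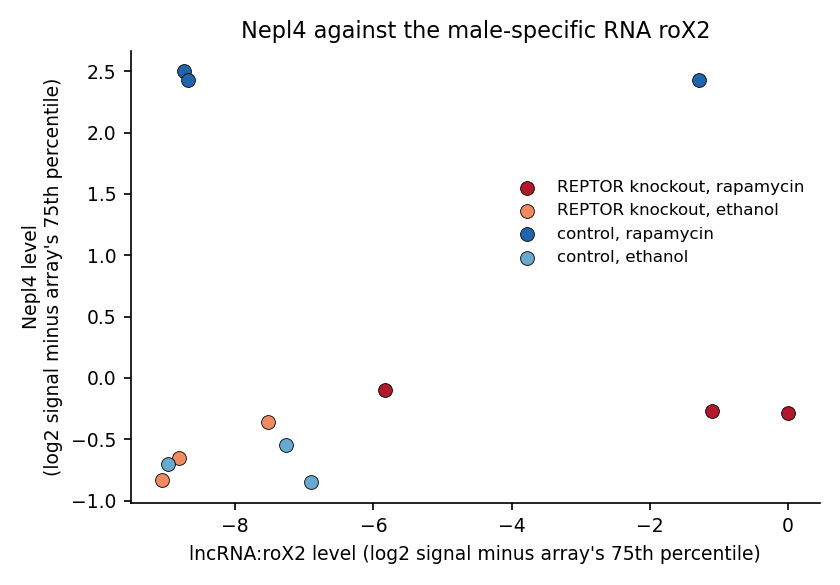
Level of Nepl4 (vertical axis) against the level of lncRNA:roX2 (horizontal axis), both as log2 processed signal minus the array's 75th percentile, 1 point per array. The control rapamycin arrays stay at 2.43 to 2.50 while roX2 runs from -8.74 to -1.29, and the knockout rapamycin arrays stay below 0.

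The only other neprilysin family gene matched to a probe was Nepl7. The reference table lists 28 of the 35 names searched, and the rest of the family is not analysed here. Nepl7 had levels of -3.73, -3.17 and -3.37 in knockout larvae on rapamycin, against -3.54, -3.57 and -3.34 in knockout larvae on ethanol. In control larvae it had -3.90, -3.61 and -3.80 on rapamycin, against -3.34, -3.67 and -3.64 on ethanol. Groups overlapped in both genotypes. Its rapamycin effects were 0.06 ± 0.15 in knockout (limma adjusted p = 0.824) and -0.22 ± 0.15 in control larvae (adjusted p = 0.267), and it passed in 0 of the 5 comparisons. On the chromosome, the gene order of the reference assembly places slam and DIP-epsilon next to Nepl4 on one side, followed by the family members Nepl5 and Nepl6. None of these neighbours was matched to a probe.

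Of a list of 15 other peptidases, mostly zinc enzymes, the only one matched was CtsB, which encodes the lysosomal cysteine protease cathepsin B and so stands for none of the zinc enzymes. Its level rose on rapamycin in control larvae by 0.50 ± 0.14 (SE, limma adjusted p = 0.0156), in a comparison where 21.2% of all targets were called higher. In knockout larvae its effect was -0.03 ± 0.14 (adjusted p = 0.886), and the difference of effects did not pass (-0.54 ± 0.20, adjusted p = 0.103). Of 32 peptide hormones, the class that neprilysins are known to cut, Ilp4 was the only one matched. It was well above background on 0 of 12 arrays.

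Of 21 genes of the TORC1 pathway 3 were matched, all encoding subunits of GATOR2, a complex that acts upstream of TORC1 in amino acid sensing. In control larvae the rapamycin effect was 1.51 ± 0.06 for mio, 1.71 ± 0.11 for Wdr59 and 0.12 ± 0.11 for Wdr24 (SE), where 43.1% of all targets were called in either direction. In knockout larvae their effects were -0.01 ± 0.06, 0.37 ± 0.11 and 0.06 ± 0.11, where 15.3% of all targets were called in either direction. The list was chosen with earlier results of these data known, so these values are a description.

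Array by array, the tested targets with a symbol that followed Nepl4 most closely were mio (Pearson r = 0.988), f-cup (0.987), caps (0.976), Hsl (0.974) and Wdr59 (0.959), over 12 arrays. Here f-cup is a gene known from the testis, caps encodes a cell-surface protein with leucine-rich repeats, and Hsl encodes hormone-sensitive lipase. Only 142 other tested targets have a symbol. All these r values largely reflect the gap between the control rapamycin arrays and the rest, which the points share. The median r over the 18756 other targets was 0.06, with 861 at 0.9 or above and 15 at 0.99 or above. Those with the highest r of all were FBtr0343738 (0.997), FBtr0079885 (0.996), FBtr0075365 (0.994), FBtr0084596 (0.994) and FBtr0081932 (0.994).

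Being alike in shape is not being alike in size. In control larvae the rapamycin effect was 3.16 for Nepl4, 1.58 for f-cup, 1.51 for mio, 0.94 for Hsl and 0.68 for caps, and 2.08 for FBtr0075365. By the root mean square difference from Nepl4, each target set relative to its own mean on control ethanol arrays, the closest with a symbol were Wdr59 (0.75), f-cup (0.82) and mio (0.86). The closest of all targets were FBtr0070821 (0.28), FBtr0078217 (0.31) and FBtr0309980 (0.34). FBtr0070821 had levels of -0.11, 0.05 and 0.10 in knockout larvae on rapamycin and -0.26, -0.18 and -0.28 in knockout larvae on ethanol. In control larvae it had 2.70, 2.74 and 2.58 on rapamycin and 0.03, -0.26 and -0.25 on ethanol. Its effects of 0.25 ± 0.09 in knockout and 2.83 ± 0.09 in control larvae lie close to those of Nepl4.

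**Figure D4:**
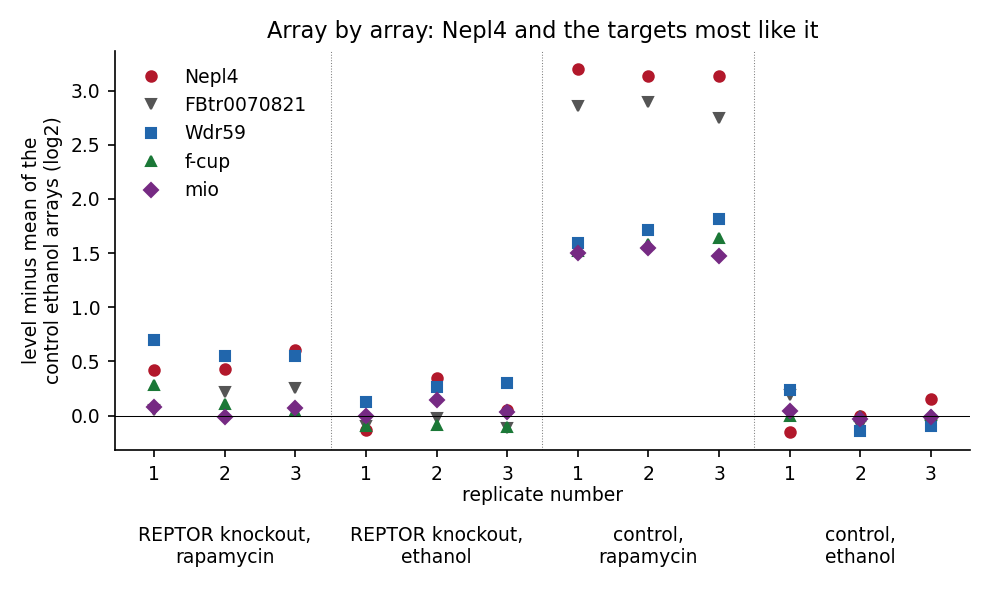
Level minus the mean of the control ethanol arrays (vertical axis, log2) on each array, by group and replicate number (horizontal axis), for Nepl4, FBtr0070821, Wdr59, f-cup and mio. On the control rapamycin arrays Nepl4 and FBtr0070821 lie between 2.74 and 3.20, and Wdr59, f-cup and mio between 1.48 and 1.81. On the knockout arrays the highest value of these 5 is 0.70, that of Wdr59.

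Among the rapamycin effects and their difference, the knockout effect moved the most relative to its size, with median centring. Over 28 alternatives each, the effect was 0.075 to 0.53 in knockout and 2.91 to 3.23 in control larvae. Over 26 alternatives the difference of effects was -2.89 to -2.50. Many of these settings could not move a value by construction. Nepl4 has 1 probe and 1 spot with no outlier mark, and target filters and arrays outside a comparison do not enter its value. The place in the order of rise was less firm. It went to 136th without control rapamycin array 1 and to 123rd without control rapamycin array 2, and to 16th without control rapamycin array 3. The place in the order of loss stayed between 13th and 48th.

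**Figure D5:**
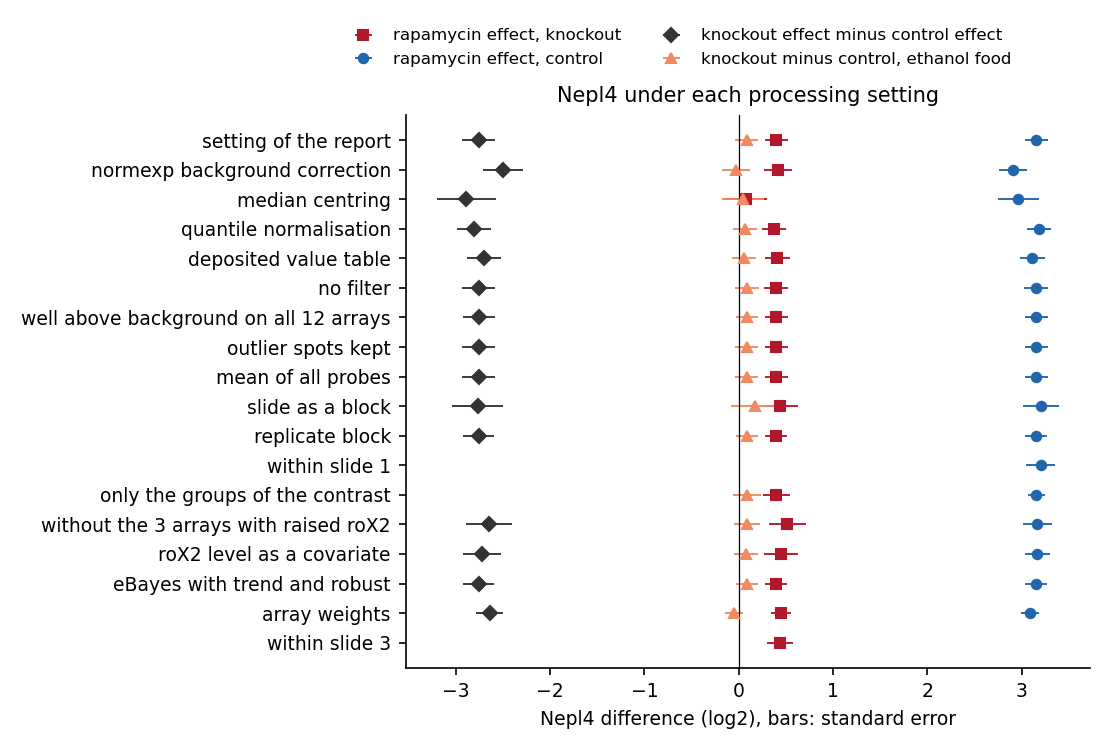
Differences of Nepl4 (horizontal axis, log2, bars are standard errors) under each processing setting (vertical axis). The effect in control larvae stays between 2.91 and 3.20, that in knockout larvae between 0.075 and 0.52, and the genotype difference on ethanol food near 0.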

How the data were processed

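Per the file headers, the scanner files as deposited give an intensity for each spot of a 1-colour Cy3 scan. The submitters' processing notes name Agilent Feature Extraction 10.7. The flags for saturation, outliers and signal well above background are other values deposited in the same files. The deposited value table holds linear intensity values whose making is not given in the sources used here. They followed the quantile-normalised median spot signal (Pearson r across probes at least 0.9999 on each array), though single probes departed from it by up to 4.16 on the log2 scale, with column medians from 144 to 157, and any centring stays unknown.

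From these files, log2 processed signals were taken relative to each array's 75th percentile, without control and outlier spots, and spots of 1 probe were averaged. Of 32162 probes, 494 matched 1 symbol in the RefSeq gene table, 3 several and 31665 none. A gene or target was represented by its brightest probe, which had to exceed background clearly on every array of a group to be tested. The fit used limma 3.58.1 (R 4.3.3) with 4 groups in 1 model, 8 residual degrees of freedom and Benjamini-Hochberg adjustment over 18757 targets. Between 72.5% and 82.7% of spots were well above background. The normexp alternative used the median spot signal, since the files used here have no mean signal column.

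Members and lists were chosen with earlier results of these data known. Named genes were the 2 neighbours on each side in the orders of rise and loss, the 5 highest in r and the 3 closest by root mean square difference, with a symbol and of all, and every tested list member. Marker lists of ovary, fat body, midgut, muscle, Malpighian tubule and haemocytes had 0 members matched. No sequence of the probe, promoter or protein was used here.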

Additional observations from a re-analysis of the deposited data

Results flagged for a closer look

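The rapamycin effect differed between genotypes for Nepl4 by -2.76 (knockout minus control, log2), given as a description since the gene was chosen for it. The same difference was -1.52 for mio, -1.34 for f-cup and -1.34 for Wdr59, in a comparison where 14.6% of all targets were called and 7.99% were called lower. These 3 listed genes, with Hsl (-0.95) and caps (-0.56), are the targets with a symbol whose values follow those of Nepl4 most closely. Their differences are therefore a description with no test.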

How the results depend on the processing

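No direction of a rapamycin effect on Nepl4 turned under any alternative, though many of these could not move its values. Values moved by more than the SD between replicates, 0.15, in these cases. With normexp the effect in control larvae was 2.91 and the difference of effects -2.50. With median centring the effect was 0.075 in knockout and 2.97 in control larvae and the genotype difference on rapamycin food -2.84. With median centring the median of all targets moved too. By construction the distance of Nepl4 from it stayed at 0.39 in knockout and 3.10 in control larvae. Between genotypes on rapamycin food this distance stayed at -2.68. The cause of the moves with normexp was not tested. Leaving out each array in turn gave 0.29 to 0.53 for the effect in knockout larvae and 3.08 to 3.23 for that in control larvae. It gave -2.87 to -2.63 for their difference, -2.73 to -2.64 for the genotype difference on rapamycin food and -0.04 to 0.20 on ethanol food. Over 27 alternatives the difference on ethanol food was negative in 3. By construction the replicate block left every value of Nepl4 as it was, since each group holds every replicate number. These values were 0.40 and 3.16 for the effects, -2.76 for their difference, and 0.09 and -2.67 between genotypes. With this block, calls on ethanol food went to 280 from 1200. Same-numbered arrays correlated at -0.82 to 0.18 in their deviations, and a number is not a shared origin in the labels. Calls over all targets depended far more on the setting. They ranged over 0 to 4504 for rapamycin in knockout larvae (main 2877, and 0 within slide 3), 2799 to 9901 in control larvae (8082) and 431 to 4284 for the difference of effects (2743). Between genotypes they ranged over 10 to 4164 on ethanol food (1200) and 788 to 6727 on rapamycin food (5226). No other probe was matched to Nepl4 and could be tried, and slide 2 gave no comparison.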
